A study of Arabidopsis thaliana with 4 samples.

Results

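Mitosis and cytokinesis genes were followed in shoot apices of Arabidopsis thaliana, as 36 gene identifiers chosen by function from a table of 27322 genes, and all 36 were found there. They comprise 7 A-type and 9 B-type cyclins, 4 B-type cyclin-dependent kinases (CDKs), 2 CKS subunits, 2 MYB3R transcription factors, 5 Aurora kinase and spindle genes, 4 genes of the spindle checkpoint and of the activators of the anaphase-promoting complex (APC/C), and 3 cytokinesis genes. RNA-seq was compared between mp clv3 double mutants, named with the alleles mp319 and clv3-7 in the growth description, and clv3 plants. Both genotypes are labelled as mutants of CLV3, which encodes a secreted peptide that limits the stem cell pool, and mp clv3 plants also carry a mutation in MP (MONOPTEROS, ARF5), an auxin response factor needed for flower initiation. For the plants other than mp clv3 that description gives Col-0 although their genotype label is clv3, and the label is followed here. Plants were 6 weeks old, kept at 22 °C under 16 h light and 8 h dark after 2 days of stratification at 4 °C, and their apices were freed of older flowers. How many apices were pooled per library is not given in the sources used here.

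The labels describe 4 libraries, 2 per genotype, but each genotype has a joint column of reads and a joint column of RPKM (reads per kilobase of gene model, scaled to the depth of the column). The mp clv3 column holds 103347441 reads and the clv3 column 100328819 reads. The spread between plants is therefore unknown and no difference below has a replicate check. Intervals are exact at 95% on read pairs and cover the counting of reads alone. They take each read pair as independent, which PCR copies are not. MP itself (AT1G19850) had 14.5 RPKM in mp clv3, against 74.8 RPKM in clv3, which goes with the labels. CLV3 (AT2G27250), labelled as mutated in both genotypes, had 15.8 RPKM in mp clv3 and 1.40 RPKM in clv3. Whether the 2 libraries of a genotype came from separate plants is not given in the sources used here.

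A plant cell enters mitosis when CDKs bind A-type and B-type cyclins, and it leaves mitosis when the APC/C, guided by CDC20 and CCS52 proteins, marks those cyclins for destruction. Many of these genes are transcribed in a burst in G2 and M phase, in part through MYB3R proteins that bind the MSA element (mitosis-specific activator) in their promoters. A plant cell then divides by building a cell plate from the middle outward, along microtubules of the phragmoplast. In the shoot apex, RNA of these genes marks cells that are dividing in the meristem and in young organs.

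Most of the 36 genes were moderately lower in mp clv3 than in clv3. In the authors' deposited table, 32 were lower at a false discovery rate (FDR) under 0.05, 1 was higher (CDKB1;1) and 3 passed in neither direction (CYCA2;2, MYB3R1 and AUR3). By the same rule, 46.3% of all genes in the table were lower, 26.4% higher and 72.7% either. Every one of the 36 had a mean of at least 100 reads, and among the 18832 genes with such a mean 53.3% were lower, 34.3% higher and 87.6% either. The counts of calls by role given below are to be read beside these shares. The test behind the FDR is not given in the sources used here, and at this depth small differences pass it.

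The difference ranged over the 36 genes between 2.58-fold lower and 1.12-fold higher. The median log2 ratio of mp clv3 over clv3 was -0.60, a level 1.52-fold lower, and the middle 50% of them lay between -0.76 and -0.35. Genes averaging 100 reads or more had a median of -0.12, with the middle 50% between -0.56 and 0.24. The standard deviation of the log2 ratio was 0.36 over the 36 genes and 1.80 over that larger set. Relative to the median of the larger set, 32 of the 36 genes lay lower.

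At a fixed fold the picture depended on where the line was drawn. At least 1.5-fold lower were 19 of the 36, against 26.3% of all genes and 24.1% of those averaging 100 reads or more, and 0 were at least 1.5-fold higher, against 13.5% and 14.9%. At least 2-fold lower were 4 of the 36 (CYCB2;1, CYCB1;2, CYCA1;1 and CYCB1;1), against 18.2% of all genes and 13.7% of those averaging 100 reads or more, so the 36 genes did not reach that fold more often than the table as a whole. 0 were at least 2-fold higher, against 9.44% of all genes and 9.92% of those averaging 100 reads or more.

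**Figure D1:**
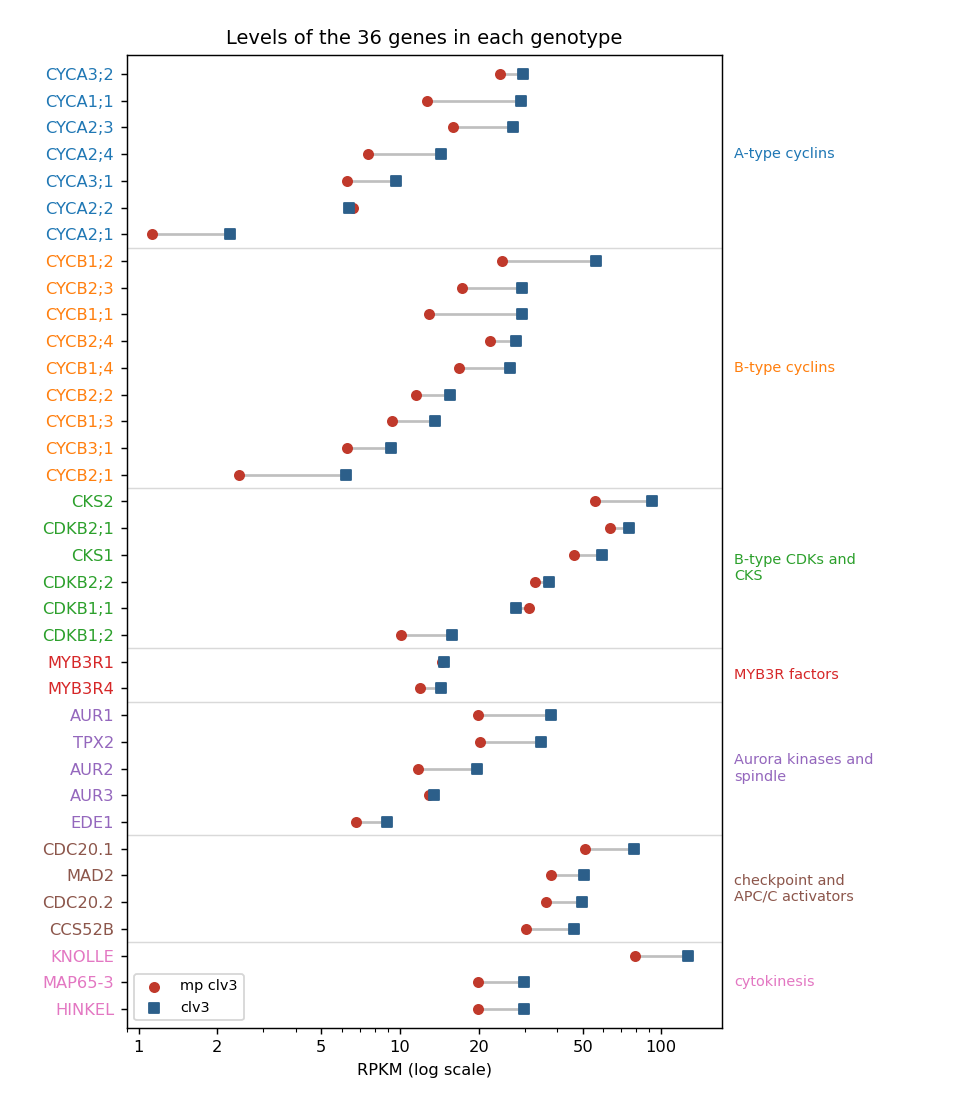
RPKM of each of the 36 genes on a log axis, with circles for mp clv3 and squares for clv3 joined by a line, in blocks by role and sorted by the clv3 level within a block. In 34 of the 36 genes the circle lies left of the square, and KNOLLE has the highest value in each genotype (79.5 RPKM in mp clv3 and 126.6 RPKM in clv3).

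The order of the levels was largely kept between the genotypes. Levels ran over 1.13 to 79.5 RPKM in mp clv3 and over 2.24 to 126.6 RPKM in clv3, with CYCA2;1 lowest and KNOLLE highest in each. The rank correlation of the RPKM of the 36 genes between the columns was 0.94, a description over genes measured in the same 2 columns. At least 10 RPKM was reached by 28 genes in mp clv3 and by 30 genes in clv3. The log2 ratio had a rank correlation of 0.09 with the mean RPKM, so it showed little trend with level, though ratios varied among genes of similar level.

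Among the A-type cyclins, which act from S phase into mitosis, the authors' deposited table called 6 of 7 lower, and the median log2 ratio was -0.76. CYCA1;1 (AT1G44110), a mitotic cyclin, had 2130 reads (12.7 RPKM) in mp clv3, against 4726 reads (29.1 RPKM) in clv3, 2.29-fold lower (interval 2.13 to 2.46). CYCA2;1 (AT5G25380) had 153 reads in mp clv3 and 295 reads in clv3 (1.13 and 2.24 RPKM), 1.99-fold lower (interval 1.5 to 2.65). That is the widest interval among the 36 genes, as this gene had the fewest reads.

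The CYCA2 subfamily, whose members pair with CDKB1 kinases to keep cells from entering endoreduplication, was not uniform. CYCA2;3 (AT1G15570) had 16.0 RPKM in mp clv3 and 27.0 RPKM in clv3, and CYCA2;4 (AT1G80370) had 7.54 RPKM in mp clv3 and 14.3 RPKM in clv3. CYCA2;2 (AT5G11300) stood apart from them with 1195 reads (6.63 RPKM) in mp clv3 and 1118 reads (6.39 RPKM) in clv3, and its ratio of 1.04 carried an interval of 0.923 to 1.17. The CYCA2;4 level was thus 1.14 times that of CYCA2;2 in mp clv3 and 2.24 times in clv3. With the columns scaled by the median ratio of genes averaging 100 reads or more, or by TMM (trimmed mean of M values), the log2 ratio of CYCA2;2 was 0.17 or 0.20 and its interval lay above 0. In the CYCA3 subfamily, which is expressed around the start of S phase, CYCA3;1 (AT5G43080) had 6.24 RPKM in mp clv3 and 9.61 RPKM in clv3. CYCA3;2 (AT1G47210) had 24.1 RPKM in mp clv3 and 29.5 RPKM in clv3, the smallest difference among the A-type cyclins that passed.

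All 9 B-type cyclins, the partners that bring CDKs to mitosis, were called lower in the authors' deposited table, and their log2 ratios had a median of -0.64. CYCB2;1 (AT2G17620) had 402 reads (2.41 RPKM) in mp clv3, against 1008 reads (6.23 RPKM) in clv3, 2.58-fold lower (interval 2.19 to 3.06), the largest factor among the 36 genes. CYCB1;2 (AT5G06150), the most expressed of the A-type and B-type cyclins among the 36 in each genotype, had 4249 reads (24.5 RPKM) in mp clv3 and 9522 reads (56.5 RPKM) in clv3, 2.31-fold lower (interval 2.19 to 2.43). CYCB1;1 (AT4G37490), widely used as a reporter of cells in G2 and M phase, had 2140 reads (12.9 RPKM) in mp clv3 and 4729 reads (29.3 RPKM) in clv3, 2.28-fold lower (interval 2.12 to 2.45). For CYCA1;1, at nearly the same factor, 11.2% of the genes averaging 100 reads or more had a still lower ratio.

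The other B-type cyclins were lower by smaller factors. CYCB2;3 (AT1G20610, 17.3 RPKM in mp clv3 and 29.4 RPKM in clv3) and CYCB1;4 (AT2G26760, 16.9 RPKM in mp clv3 and 26.4 RPKM in clv3) were 1.7-fold and 1.56-fold lower. CYCB3;1 (AT1G16330) was 1.48-fold, CYCB1;3 (AT3G11520) 1.47-fold and CYCB2;2 (AT4G35620) 1.35-fold lower, with 6.29, 9.32 and 11.6 RPKM in mp clv3, against 9.28, 13.7 and 15.6 RPKM in clv3. In CYCB2;3, 13.7% of the windows of 100 bases of its transcript also occur in AT1G20590, so its value is uncertain to that extent. CYCB2;4 (AT1G76310) had 22.2 RPKM in mp clv3 and 27.8 RPKM in clv3, 1.25-fold lower (interval 1.17 to 1.34). Close relatives therefore differed in factor, and CYCB2;2 stood at 4.79 times the level of CYCB2;1 in mp clv3 and at 2.50 times in clv3, a change in their ratio of 1.92 (interval 1.59 to 2.32).

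**Figure D2:**
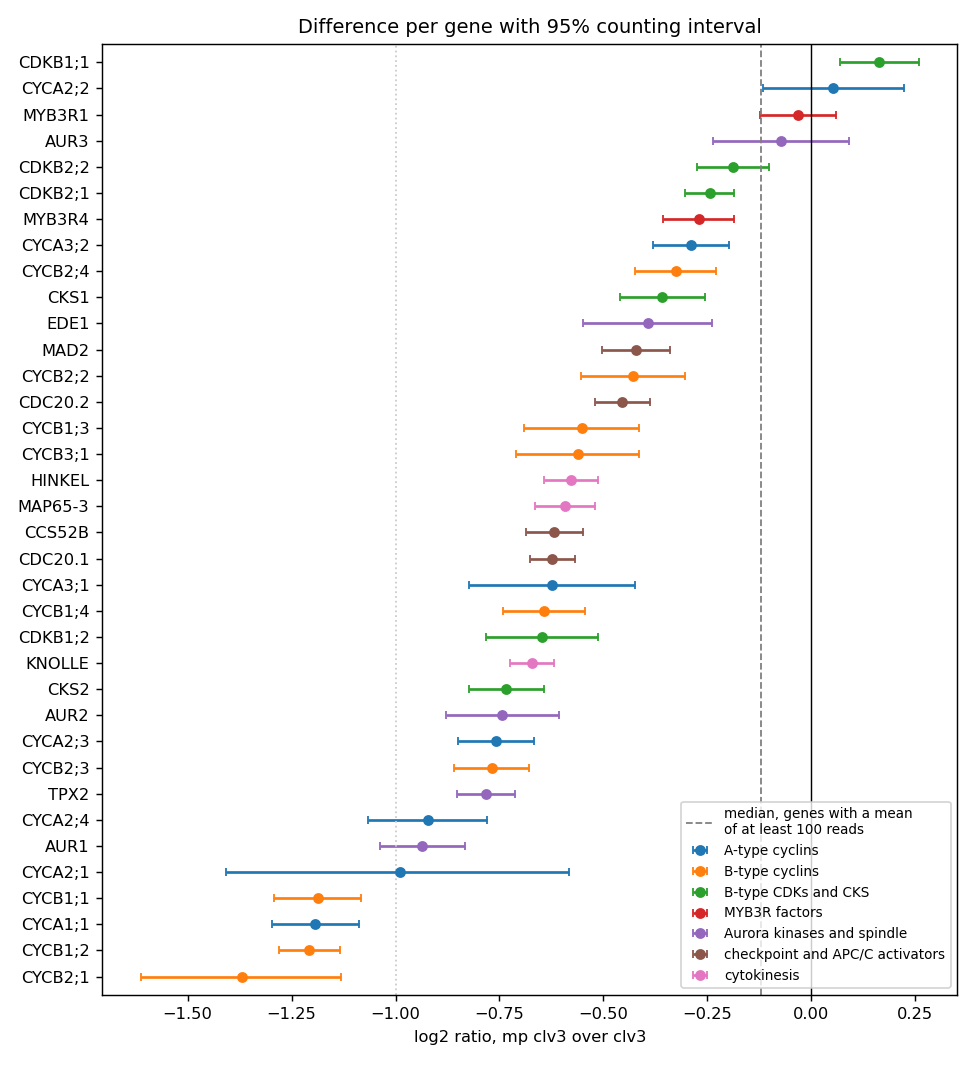
Log2 ratio of mp clv3 over clv3 for each gene, coloured by role, with the 95% interval from read counting. The solid line marks 0, the dashed line the median of genes averaging 100 reads or more (-0.12) and the dotted line a 2-fold fall. The 4 genes at the bottom lie past the 2-fold line and CDKB1;1 at the top is the gene whose interval lies above 0.

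The kinase subunits differed least of the classes with more than 2 members. The 4 CDKB genes encode plant-specific mitotic kinases, of which CDKB1 is expressed from S phase on and CDKB2 from G2 on. CDKB1;1 (AT3G54180) had 3883 reads (31.2 RPKM) in mp clv3 and 3366 reads (27.9 RPKM) in clv3, and it is the gene called higher, by a factor of 1.12 (interval 1.05 to 1.20). CDKB1;2 (AT2G38620) went the other way, with 1505 reads in mp clv3 and 2288 reads in clv3, 1.57-fold lower. The level of CDKB1;1 was 3.08 times that of CDKB1;2 in mp clv3 and 1.76 times in clv3, a change in their ratio of 1.75 (interval 1.56 to 1.97).

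CDKB2;1 (AT1G76540) had 63.4 RPKM in mp clv3 and 75.1 RPKM in clv3, and CDKB2;2 (AT1G20930) had 32.8 RPKM in mp clv3 and 37.3 RPKM in clv3. They were 1.18-fold and 1.14-fold lower, and with the median of genes averaging 100 reads or more set to 0 the interval of CDKB2;2 took in no difference. CKS1 (AT2G27960) and CKS2 (AT2G27970) encode small proteins that bind CDKs and lie next to each other on chromosome 2. CKS2 had 55.6 RPKM in mp clv3 and 92.4 RPKM in clv3, 1.66-fold lower, and CKS1 had 46.4 RPKM in mp clv3 and 59.5 RPKM in clv3, 1.28-fold lower. The 6 CDKB and CKS genes made up 29.6% of the summed RPKM of the 36 genes in mp clv3 and 25.8% in clv3.

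The MYB3R factors, which regulate G2 and M phase transcription, were nearly level. MYB3R4 (AT5G11510), an activator of mitotic genes, had 4203 reads (11.9 RPKM) in mp clv3 and 4923 reads (14.4 RPKM) in clv3, 1.21-fold lower (interval 1.14 to 1.28). MYB3R1 (AT4G32730), reported to act as activator and as repressor, had 3939 reads (14.4 RPKM) in mp clv3 and 3908 reads (14.8 RPKM) in clv3. Its log2 ratio was -0.03, and it turned to 0.12 when columns were scaled by TMM, with an interval above 0. Of the other MYB3R genes, MYB3R3 and MYB3R5, described as repressors of mitotic genes, had 10.4 and 7.45 RPKM in mp clv3 and 8.92 and 5.73 RPKM in clv3, and both were higher in the authors' deposited table. MYB3R2, with 0 reads in mp clv3 and 22 reads in clv3, was called lower there.

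Aurora kinases and spindle genes were lower in 4 of 5 cases, with a median log2 ratio of -0.74. AUR1 (AT4G32830) and AUR2 (AT2G25880), kinases of the spindle and the forming cell plate, had 19.8 and 11.7 RPKM in mp clv3, against 37.9 and 19.7 RPKM in clv3. AUR1 was 1.91-fold lower (interval 1.78 to 2.05), and AUR2 was 1.67-fold lower. AUR3 (AT2G45490), which acts at centromeres, had 1221 reads (12.9 RPKM) in mp clv3 and 1246 reads (13.5 RPKM) in clv3 and did not pass. AUR1 was at 1.54 times the level of AUR3 in mp clv3 and at 2.80 times in clv3. TPX2 (AT1G03780), a spindle assembly protein that in animals activates Aurora A, had 5216 reads in mp clv3 and 8710 reads in clv3, 1.72-fold lower. EDE1 (AT2G44190), a microtubule-associated protein first found through its role in endosperm, had 6.76 RPKM in mp clv3 and 8.89 RPKM in clv3, 1.31-fold lower.

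All 4 genes that time the exit from mitosis were lower, within a narrow span of factors. MAD2 (AT3G25980), a spindle checkpoint protein that holds back CDC20, had 37.9 RPKM in mp clv3 and 50.8 RPKM in clv3, 1.34-fold lower. CDC20.1 (AT4G33270) and CDC20.2 (AT4G33260) had 51.2 and 36.3 RPKM in mp clv3, against 78.9 and 49.7 RPKM in clv3, 1.54-fold and 1.37-fold lower. CDC20.1 and CDC20.2 are tandem copies, and 20.6% of the windows of 100 bases in the RefSeq transcript of CDC20.1 occur unchanged in CDC20.2, so their separate values are uncertain. CCS52B (AT5G13840), the CCS52 protein of dividing cells, had 30.3 RPKM in mp clv3 and 46.4 RPKM in clv3, 1.53-fold lower.

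The cytokinesis genes had nearly equal factors. KNOLLE (AT1G08560), the syntaxin that fuses vesicles into the cell plate, had 9786 reads (79.5 RPKM) in mp clv3 and 15128 reads (126.6 RPKM) in clv3, 1.59-fold lower (interval 1.54 to 1.65). MAP65-3 (AT5G51600), which crosslinks microtubules in the middle of the phragmoplast, had 19.8 RPKM in mp clv3 and 29.9 RPKM in clv3, 1.51-fold lower. HINKEL (AT1G18370), the kinesin that starts the MAP kinase cascade of phragmoplast expansion, had 19.9 RPKM in mp clv3 and 29.7 RPKM in clv3, 1.49-fold lower. KNOLLE overlaps a gene on the other strand, as do 9 more of the 36 genes whose overlapping gene had at least 100 reads over both columns, with overlaps of 4 to 464 bases. The sources used here do not say whether strand was used in counting, so reads in these overlaps cannot be assigned with certainty. CKS2 overlaps AT2G27980 on the same strand by 67 bases, and that gene had 10295 reads in mp clv3 and 8797 reads in clv3.

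**Figure D3:**
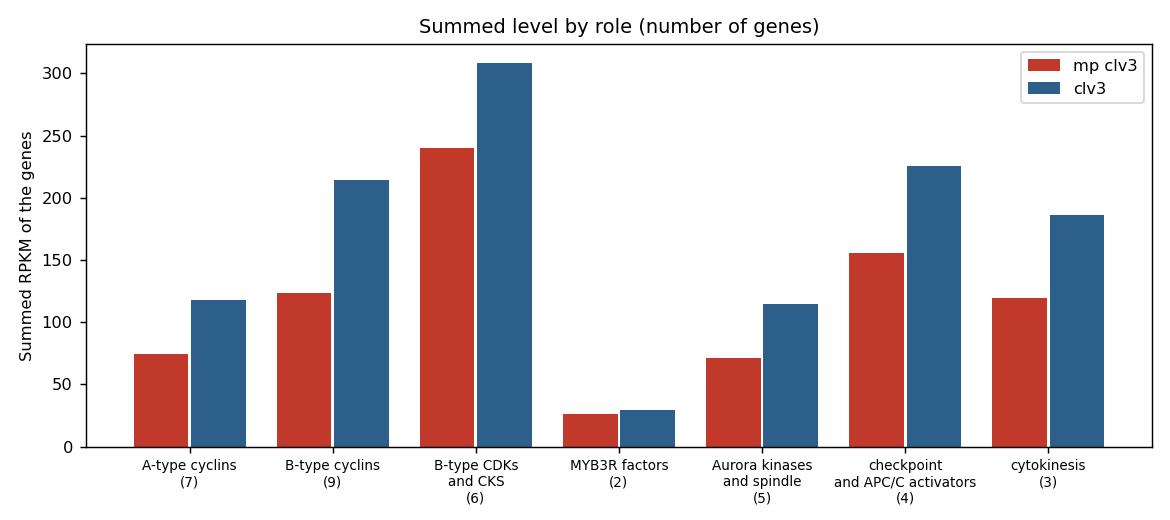
Summed RPKM of the genes of each role, with mp clv3 left of clv3 and the number of genes in brackets. There is 1 column per genotype, so no error bar can be drawn. Every role sums lower in mp clv3, from 123 against 214 RPKM for the B-type cyclins to 26.4 against 29.2 RPKM for the MYB3R factors, whose summed ratio was 1.003 with TMM scaling.

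Summed over all 36 genes, the level was 810 RPKM in mp clv3 and 1196 RPKM in clv3, 1.48-fold lower. The B-type cyclins summed 1.74-fold lower, the Aurora and spindle genes 1.61-fold, the A-type cyclins 1.59-fold and the cytokinesis genes 1.56-fold. The checkpoint and APC/C genes summed 1.45-fold, the CDKB and CKS genes 1.29-fold and the MYB3R factors 1.11-fold lower. With TMM scaling the summed ratio of the MYB3R factors was 1.003, while the other roles still summed lower. In bulk tissue, fewer dividing cells and less of this RNA per dividing cell cannot be told apart.

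The promoters were read for the core of the MSA element, AACGG on either strand, in windows from 250 bases before to 50 bases after each annotated gene start (RefSeq, build TAIR10.1). Windows are shown for the 4 genes at least 2-fold lower, KNOLLE as the most expressed gene and CDKB1;1 as the gene called higher. They were thus chosen by difference and level. They run 5′ to 3′ along the gene, with matches to AACGG or its complement CCGTT in capitals.
CYCB2;1, chr2:7663805-7664104, plus strand: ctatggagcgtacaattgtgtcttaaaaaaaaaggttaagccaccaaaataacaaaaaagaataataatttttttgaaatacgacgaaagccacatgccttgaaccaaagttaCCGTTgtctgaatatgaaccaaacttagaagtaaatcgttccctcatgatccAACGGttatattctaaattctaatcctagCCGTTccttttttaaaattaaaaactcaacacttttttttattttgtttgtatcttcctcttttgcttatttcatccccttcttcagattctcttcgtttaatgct
CYCB1;2, chr5:1861654-1861953, minus strand: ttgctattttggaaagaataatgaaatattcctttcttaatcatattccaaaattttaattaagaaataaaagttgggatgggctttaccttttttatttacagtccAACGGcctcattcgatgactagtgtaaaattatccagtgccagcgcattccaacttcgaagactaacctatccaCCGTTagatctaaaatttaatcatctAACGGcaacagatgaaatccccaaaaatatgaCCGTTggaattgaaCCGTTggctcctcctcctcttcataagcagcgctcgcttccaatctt
CYCA1;1, chr1:16777303-16777602, minus strand: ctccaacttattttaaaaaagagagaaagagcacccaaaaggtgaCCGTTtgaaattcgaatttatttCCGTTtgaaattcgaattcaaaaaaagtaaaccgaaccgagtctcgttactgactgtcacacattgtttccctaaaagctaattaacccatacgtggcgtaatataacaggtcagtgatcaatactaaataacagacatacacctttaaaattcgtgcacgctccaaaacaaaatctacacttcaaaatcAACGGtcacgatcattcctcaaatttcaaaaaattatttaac
CYCB1;1, chr4:17624259-17624558, minus strand: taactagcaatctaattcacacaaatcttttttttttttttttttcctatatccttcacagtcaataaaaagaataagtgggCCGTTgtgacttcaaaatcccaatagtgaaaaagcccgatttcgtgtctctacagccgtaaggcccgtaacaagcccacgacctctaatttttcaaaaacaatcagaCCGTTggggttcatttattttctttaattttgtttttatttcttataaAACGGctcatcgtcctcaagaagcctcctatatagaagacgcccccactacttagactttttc
KNOLLE, chr1:2710951-2711250, minus strand: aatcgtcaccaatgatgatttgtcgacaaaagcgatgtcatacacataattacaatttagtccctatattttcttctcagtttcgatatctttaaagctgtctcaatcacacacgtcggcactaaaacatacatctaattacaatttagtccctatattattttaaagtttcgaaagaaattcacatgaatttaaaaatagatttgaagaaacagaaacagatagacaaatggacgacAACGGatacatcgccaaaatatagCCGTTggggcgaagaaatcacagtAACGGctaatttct
CDKB1;1, chr3:20059421-20059720, plus strand: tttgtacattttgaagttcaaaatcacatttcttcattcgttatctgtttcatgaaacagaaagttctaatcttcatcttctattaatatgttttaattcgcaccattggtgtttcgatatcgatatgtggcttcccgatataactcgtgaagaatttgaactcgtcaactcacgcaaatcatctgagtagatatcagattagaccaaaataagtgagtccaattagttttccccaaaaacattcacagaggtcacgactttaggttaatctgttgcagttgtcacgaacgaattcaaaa

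CYCB1;2 held 5 matches, and CYCB2;1, CYCA1;1, CYCB1;1 and KNOLLE held 3 each, while CDKB1;1 held 0. No gene called lower without a match is among those shown. Over the 36 genes, 23 windows (63.9%) held at least 1 match and 15 (41.7%) held 2 or more. Among 27443 windows of protein-coding genes, 24.7% held at least 1 match and 4.89% held 2 or more. For the 18628 of genes averaging 100 reads or more, these shares were 26.6% and 5.73%. The 36 genes were chosen by function, and several are textbook targets of MYB3R factors, so a high share is no independent observation.

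The median difference between genotypes was larger in genes with more matches in these windows, which was not tested. The 15 genes with 2 or more matches had a median log2 ratio of -0.67, the 8 genes with 1 match had -0.57 and the 13 genes without a match had -0.33. All 23 genes with a match were among the 32 called lower, and the 4 genes not called lower (CDKB1;1, CYCA2;2, MYB3R1 and AUR3) had none. Among all genes averaging 100 reads or more 53.3% were called lower, and their calls were not split by matches. Whether calls go with matches beyond the 36 genes is therefore unknown. The ranges overlapped, from -1.37 to -0.42 with 2 or more matches and from -0.92 to 0.16 without one. Another 9 genes (CYCA2;3, CYCA2;4, CYCA3;2, CYCB2;4, CDKB1;2, CDKB2;1, CKS1, CDC20.1 and CCS52B) were called lower without a match in this window. A match is a string of letters and not a measured binding site, and the files' own gene models may start elsewhere, since the length implied by reads and RPKM was within 1 base of a RefSeq transcript for 6 of the 36 genes.

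**Figure D4:**
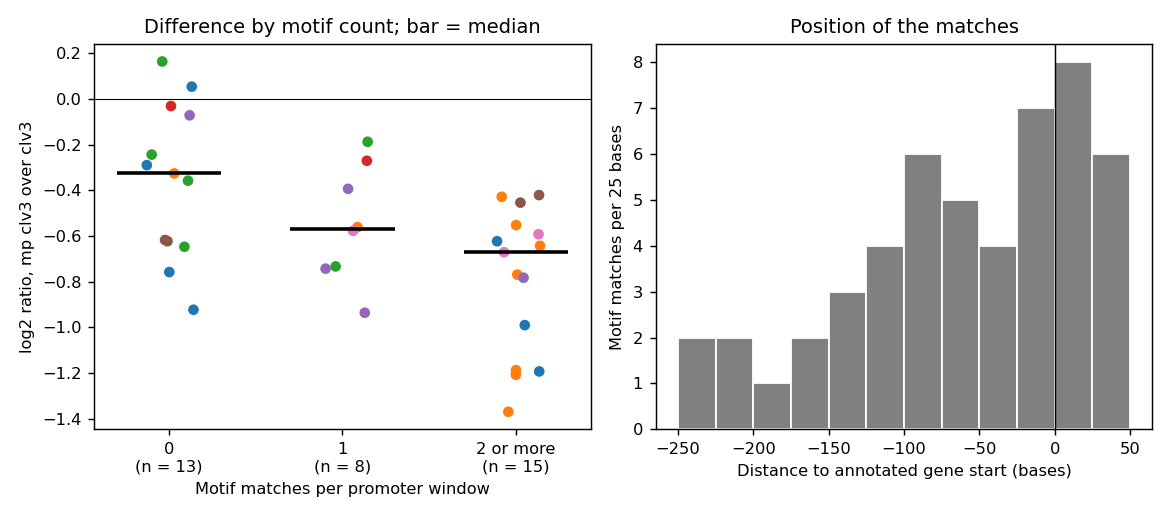
Left, log2 ratio of mp clv3 over clv3 by the number of AACGG or CCGTT matches in the promoter window, 1 point per gene, coloured by role with the colours of the plot of log2 ratios, and a bar for the median (-0.33, -0.57 and -0.67). Right, distance of the 50 matches from the annotated gene start, with 36 before and 14 after it, in bins of 25 bases.

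Other genes of the same processes were looked up in a list of 52 that does not include the 36. The authors' deposited table called 39 of the 52 lower and 10 higher, against 46.3% and 26.4% of all genes. The median log2 ratio was -0.44 over the 51 genes above the floor of 6 reads in at least 1 column. The largest differences among those with at least 100 reads in the higher genotype were in SNAP33, PANS1 and BUBR1. SNAP33, a partner of KNOLLE in membrane fusion that also acts in defence secretion, had 93.4 RPKM in mp clv3 and 42.1 RPKM in clv3. PANS1, which protects chromatid cohesion, had 19.7 RPKM in mp clv3 and 42.0 RPKM in clv3, and BUBR1, a checkpoint protein, had 9.41 RPKM in mp clv3 and 19.0 RPKM in clv3. The higher genes also included CDKA;1, the general cell cycle kinase, with 10841 reads in mp clv3 and 8336 reads in clv3, and the KNOLLE regulator KEULE with 11044 reads in mp clv3 and 9247 reads in clv3. CCS52A1 and CCS52A2, which drive exit into endoreduplication, were lower with 2.25 and 5.81 RPKM in mp clv3, against 4.42 and 11.2 RPKM in clv3.

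Genes of DNA replication moved by a similar amount. The authors' deposited table called 26 of 27 lower and 1 (E2FC) higher. Of all genes 46.3% were lower and 26.4% higher, and of those averaging 100 reads or more 53.3% and 34.3%. E2FB, also on the replication list, had no values in the deposited table and is not counted. Their log2 ratios had a median of -0.52. TSO2, a ribonucleotide reductase subunit, had 30.6 RPKM in mp clv3 and 109 RPKM in clv3, the largest difference in that list, followed by AT1G07270 (log2 ratio -1.08) and ORC1A (-0.86). D-type cyclins, which respond to growth signals, had a median of -0.27, and 6 of 10 were called lower and 1 higher. Beside the same shares, the lower calls were near that of genes averaging 100 reads or more (53.3%). At least 2-fold lower were 3 of the 10, against 18.2% of all genes and 13.7% of those averaging 100 reads or more. They include CYCD7;1, with 8 reads in mp clv3 and 39 reads in clv3. 0 were at least 2-fold higher, against 9.44% and 9.92%. Of the 6 called lower, CYCD6;1 had a ratio whose counting interval of 0.756 to 1.05 took in no difference. CYCD1;1 (log2 ratio -1.43), CYCD3;3 (-1.08) and CYCD4;2 (-0.76) fell most among those with at least 100 reads, and CYCD3;2 had 140.4 RPKM in mp clv3 and 109 RPKM in clv3. Whether the 36 genes differ from these lists was not tested.

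**Figure D5:**
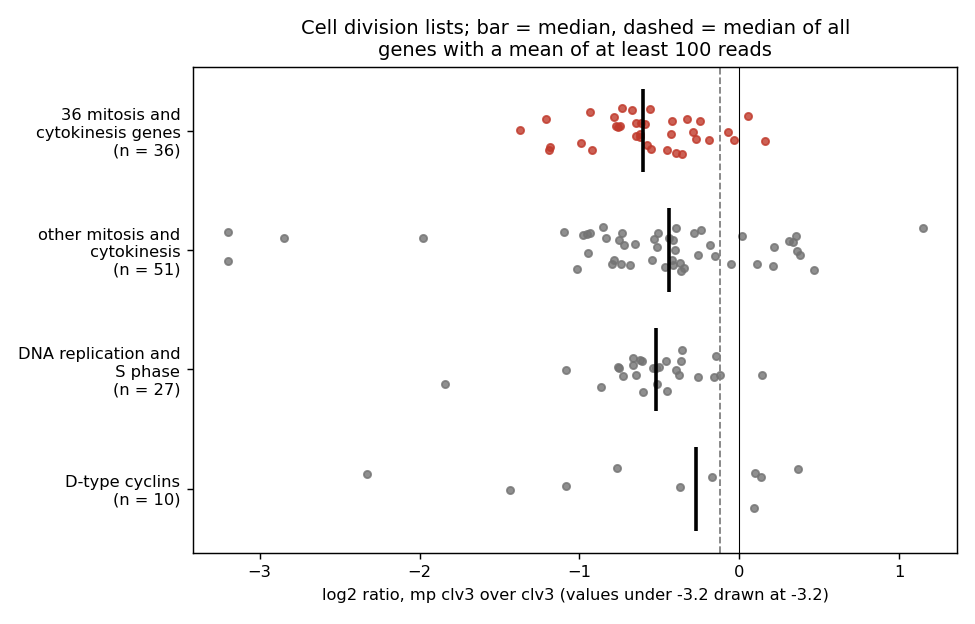
Log2 ratio of mp clv3 over clv3 for 4 lists, 1 point per gene with at least 1 column above the floor. Bars are list medians (-0.60 for the 36 genes, -0.44 for other mitosis and cytokinesis genes, -0.52 for DNA replication and -0.27 for D-type cyclins) and the dashed line is the median of genes averaging 100 reads or more (-0.12).

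Tissue markers were looked up as well, and the lists moved in different directions. All 10 tapetum and pollen markers were lower in the authors' deposited table, with summed levels of 13.6 RPKM in mp clv3 and 847 RPKM in clv3, and MS2 and ATA1 were at 0 reads in mp clv3. All 6 floral organ markers with values were lower, with 2.15 RPKM in mp clv3 and 437 RPKM in clv3 in sum. AG, also on that list, had no values and is not counted. Of the meiocyte markers 8 of 9 were lower, with 16.2 RPKM in mp clv3 and 44.3 RPKM in clv3 in sum. Shoot meristem markers were higher in 6 of 8 cases, with 471 RPKM in mp clv3 and 249 RPKM in clv3 in sum. BP and CLV2 were lower, and CLV3, labelled as mutated in both genotypes, was among the 6 higher. By the authors' FDR, 46.3% of all genes were lower and 26.4% higher. The part of tissue makeup in the result was not tested.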

How the data were processed

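From shoot apices, mRNA was purified, prepared with a strand-specific kit and read from both ends over 100 bases, per the labels' protocols. The submitters' processing notes list CASAVA 1.7, BWA and TAIR10 as build. Neither the counting of reads nor the joining of the 2 libraries of a genotype is described in the sources used here. The authors deposited, for every gene, counts (handled as estimated counts, since genes without reads carry 0.5, here taken as 0) and RPKM by genotype. A log2 ratio of mp clv3 over clv3 and an FDR (adjusted p-value) were deposited beside them by the authors.

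Of 27323 rows, 1 held shifted content and was left out. The planned test across libraries was not possible with 1 column per genotype, so a call is an FDR under 0.05 given by the authors' deposited table, without any p-value of this work. Folds and log2 ratios were recomputed from reads scaled by the column totals (their ratio is 1.03). Read pairs were taken as reads divided by 2, with exact Clopper-Pearson intervals at 95%, and exact conditional intervals for changes in the ratio of 2 genes. Both cover counting error only. The floor was 3 read pairs (6 reads) per column, and genes at or under it in both columns were called at no fold and entered no median. They stay in the denominator of shares over all genes, and without them 21.7% were at least 2-fold and 31.2% at least 1.5-fold lower. Intervals were tested on simulated counts that held counting error only, so that test does not bear on the spread between plants or on PCR copies. RefSeq names were found for all 36 members.

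The members and lists were chosen with earlier results of these data known. Within each role, the rule for full values took the largest and smallest fold, the highest level and members against their class, and in other lists the 3 largest log2 ratios with at least 100 reads. MYB3R2, MYB3R3, MYB3R5, CDKA;1, KEULE, CCS52A1, CCS52A2, CYCD3;2, CYCD6;1, E2FC and the pairs of relatives were chosen after their values were seen. Alternatives were median scaling, TMM (edgeR 4.0.16), a mean of at least 100 reads, a pseudocount of 1 RPKM, 1.5-fold, calls from the intervals and, added after seeing the data, a window of 500 bases before the gene start. Python 3.11.15, SciPy 1.17.1 and R 4.3.3 were used.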

Additional observations from a re-analysis of the deposited data

How the results depend on the processing

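No paired analysis was possible because the 2 columns carry no replicate numbers, and leaving out each library was not run for the same reason. Scaling mattered most for the genes near 0. With the median of genes averaging 100 reads or more set to 0 (a shift of 0.12 in log2) the intervals called 31 members lower and 2 higher, and with TMM (a shift of 0.15) 31 lower and 3 higher, with MYB3R1 turned to 0.12. The member median log2 ratio was -0.48 with median scaling, -0.46 with TMM and -0.56 with a pseudocount of 1 RPKM. An FDR under 0.05 together with 1.5-fold left 19 lower and 0 higher, and 1.5-fold alone gave 19 lower in place of 4 at 2-fold. S-phase and D-type cyclin genes higher numbered 5 with median scaling and 5 with TMM, in place of 2, and those at least 2-fold lower numbered 3 under each, in place of 5. Other mitosis and cytokinesis genes at least 2-fold lower came to 2 among those averaging 100 reads or more, in place of 6, since low genes leave the count. With 500 bases before the start, 27 of 36 member windows and 37.4% of all windows held the motif. The medians and calls by number of matches were not recomputed for that window. For single members, 32 of 36 kept direction and side under median scaling and 32 under TMM, and MYB3R1 and AUR3 changed sign under both, AUR3 without passing. CYCA2;2 passed as higher under both and CDKB2;2 no longer passed under either. Depth limits CYCA2;1 most, and the missing spread between plants limits every value.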
